A study of Mus musculus with 6 samples.

Results

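The acute phase genes described here are 10 genes for plasma proteins of inflammation, read in mouse liver. They are the serum amyloid A genes Saa1, Saa2, Saa3 and Saa4, the orosomucoid genes Orm1, Orm2 and Orm3, the lipocalin gene Lcn2, and the pentraxin genes Apcs and Crp. They were picked by gene symbol, and each of the 10 symbols stood on 1 probe set, out of 22203 probe sets with a symbol. RNA was taken from 3 livers of HMGB2-KO mice and 3 livers of WT mice, all male C57BL/6 animals aged 8 weeks, and each liver was hybridised to its own Clariom S mouse array. HMGB2 is a chromatin protein that bends DNA, and the series screened for genes related to its expression. How the allele was made, whether the deletion is restricted to a cell type, and the hour of day, feeding state and health of the animals at sampling were not stated in the labels. Livers carry a number from 1 to 3 in their titles, but separate mice are not stated, so each p-value reflects the scatter of these samples, part of which may be technical.

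The acute phase response is the change in liver secretion that follows infection, injury or surgery. Interleukin 6 and related cytokines act through STAT3, and interleukin 1 and tumour necrosis factor act through NF-kB, with C/EBP factors, on promoters in hepatocytes. In mice serum amyloid A and serum amyloid P (the Apcs product) are the strongly induced plasma proteins, and C-reactive protein, the main marker in humans, is only weakly induced.

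The deposited values are log2 values centred gene by gene, with the log base read from their range, so each fold rests on that reading. A median over these 6 arrays alone as the zero would leave every probe set with a median of 0, and 8.33% had one within 2e-06 of it. The labels do not say how the values were centred or on which arrays, and levels cannot be compared between genes. Array medians lay between -0.05 and -0.04 for the HMGB2-KO arrays and between -0.04 and 0.26 for the WT arrays, with WT replicate 2 as the array that stood apart. That array also held isolated low readings, such as Apoa2, a hepatocyte apolipoprotein gene, at -7.00 against 0.02 to 0.21 in the other 5 arrays. Hmgb2 itself read -0.70, -0.38 and -0.48 in HMGB2-KO livers, against 0.48, 0.62 and 0.38 in WT livers, a change of -1.01 ± 0.15 (SE, n = 3 per genotype, limma adjusted p = 0.469). The median change of all probe sets was -0.12, and changes relative to it are named as such. Where values are called array-centred, each array's median has been subtracted.

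None of the 10 acute phase genes differed between HMGB2-KO and WT livers beyond the spread within a genotype. limma called 0 members at an adjusted p of 0.05, where it called 0% of all probe sets, and 0 members at an unadjusted p of 0.05, where it called 4.92% (0.0721% higher and 4.85% lower). For every member the SD within at least 1 genotype was larger than the difference between the genotypes. Every HMGB2-KO array above every WT array held for 0 members on deposited values, where 0.779% of all probe sets did so, and every HMGB2-KO array below every WT array also held for 0, against 10.9% of all. Set against the median gene, 9 members lay higher and 1 lower in HMGB2-KO. In other lists, 9 of 10 hepatocyte markers, 8 of 11 negative acute phase genes and 3 of 12 cytokine genes lay higher. The median of the members was 0.13. Without WT replicate 2 that median was 0.11, again with 9 members above the median gene. Without HMGB2-KO replicate 3 it was -0.27, with 3 members above.

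**Figure D1:**
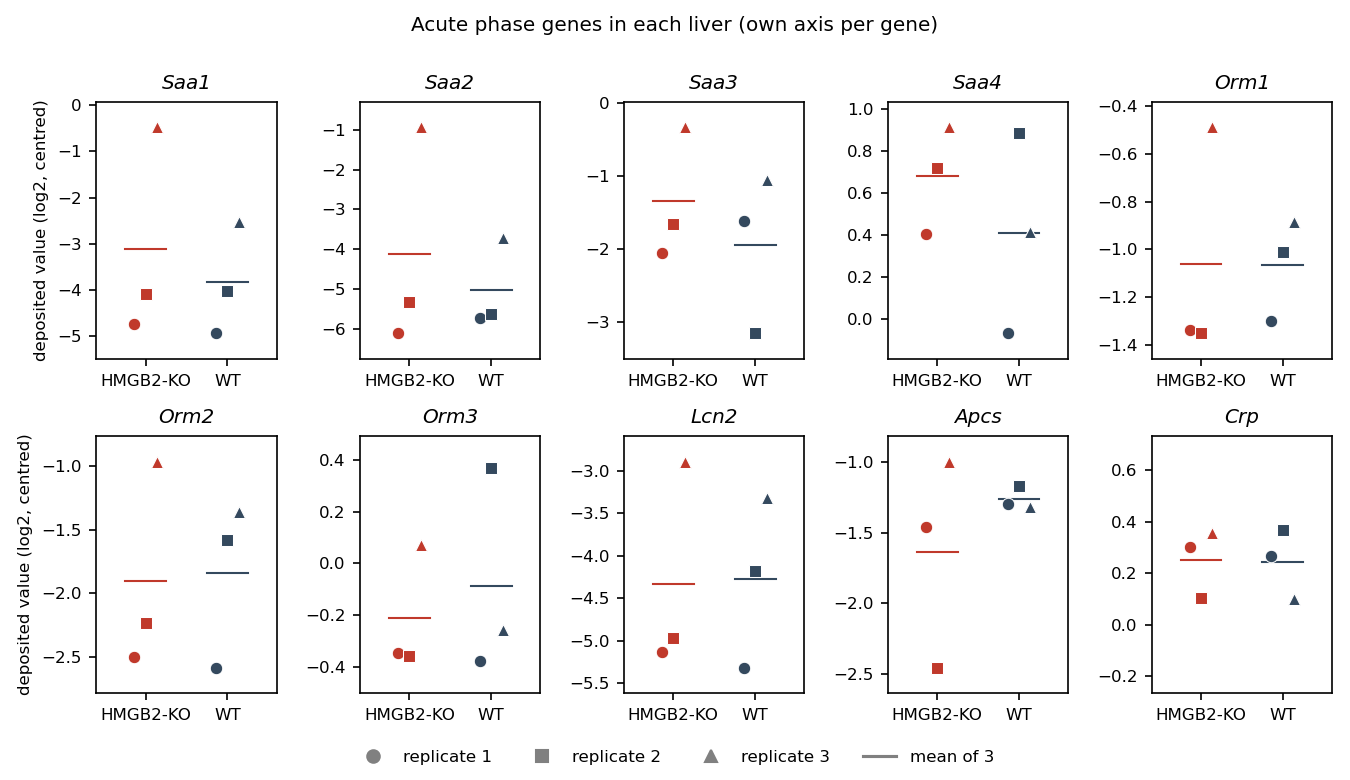
Deposited log2 values of the 10 acute phase genes in each liver, with HMGB2-KO at left and WT at right of each panel, symbols for the replicate numbers and a line at the mean of 3. The triangle of HMGB2-KO replicate 3 is the highest point of its genotype in all 10 panels, and for Saa2 it stands at -0.93 where the other HMGB2-KO livers stand at -6.12 and -5.33.

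Saa1 and Saa2 encode the serum amyloid A proteins that hepatocytes release during inflammation and that travel on high density lipoprotein. Saa1 read -4.74, -4.09 and -0.48 in HMGB2-KO livers and -4.94, -4.01 and -2.53 in WT livers. Saa2 read -6.12, -5.33 and -0.93 in HMGB2-KO livers and -5.72, -5.62 and -3.72 in WT livers. For both genes replicate 3 was the highest liver of each genotype, HMGB2-KO replicate 3 was the highest of all 6, and the other 4 livers of the 2 genotypes overlapped. The means of Saa1 were -3.10 ± 2.29 in HMGB2-KO and -3.83 ± 1.22 in WT (SD, n = 3 each), a change of 0.72 ± 1.09 (SE, 95% interval -1.82 to 3.27, limma adjusted p = 0.913). Those of Saa2 were -4.13 ± 2.80 in HMGB2-KO and -5.02 ± 1.13 in WT, a change of 0.89 ± 1.27 (SE, 95% interval -2.05 to 3.84, limma adjusted p = 0.909). Such intervals leave room for a strong change in either direction. Leaving out HMGB2-KO replicate 3 turned both changes round, to -0.59 for Saa1 and -0.70 for Saa2. Leaving out HMGB2-KO replicate 1 gave 1.54 for Saa1 and 1.89 for Saa2.

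The livers differed far more in these genes than the genotypes did. On array-centred values the highest liver stood 36.8-fold above the lowest for Saa2 and 22.9-fold for Saa1, where the median probe set had a range of 0.52 log2 units. By SD over the 6 arrays Saa2 ranked 50 and Saa1 ranked 66 of 22203 probe sets. Saa1 and Saa2 are close paralogs that lie next to each other on chromosome 7 in the RefSeq gene table of GRCm38.p6, where each symbol is also an older synonym of the other. How far their probes share signal is not known, so the pair may count as less than 2 independent readings. Their profiles over the 6 arrays, each centred on its mean, differed by 0.39 log2 units (root mean square).

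Saa3, which in mice is also made outside hepatocytes, in macrophages and fat tissue among others, read -2.05, -1.66 and -0.33 in HMGB2-KO livers and -1.61, -3.16 and -1.05 in WT livers. HMGB2-KO replicate 3 was again the highest, and the low end was set by WT replicate 2. The change was 0.59 ± 0.61 (SE, 95% interval -0.82 to 2.00, limma adjusted p = 0.875), and it was -0.02 without WT replicate 2. Its mean-centred profile over the 6 arrays differed by 1.10 log2 units from that of Saa1 and by 1.22 from that of Saa2 (root mean square), against 0.39 between Saa1 and Saa2. Saa4, whose product is made in the absence of inflammation, read 0.41, 0.72 and 0.91 in HMGB2-KO livers and -0.07, 0.89 and 0.42 in WT livers. The genotypes overlapped, and WT replicate 2 read above 2 of the 3 HMGB2-KO livers. Its change of 0.27 ± 0.26 (SE, 95% interval -0.33 to 0.87, limma adjusted p = 0.869) kept its sign under all 16 alternatives, between 0.03 and 0.65. In 2 of them, array weights and array-centred values without WT replicate 2, limma's unadjusted p for Saa4 was 0.0111 and 0.0494, with adjusted p = 0.289 and 0.999.

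The orosomucoids, also named alpha-1-acid glycoproteins, are lipocalin-fold plasma proteins that bind drugs and steroids. Orm2 read -2.50, -2.23 and -0.96 in HMGB2-KO livers and -2.58, -1.58 and -1.36 in WT livers. Orm1 read -1.34, -1.35 and -0.49 in HMGB2-KO livers and -1.30, -1.01 and -0.89 in WT livers. In both genes the numbered-3 liver was the highest of its genotype and the genotypes overlapped. The changes were -0.06 ± 0.46 for Orm2 (SE, 95% interval -1.12 to 1.00, limma adjusted p = 0.986) and 0.01 ± 0.26 for Orm1 (SE, 95% interval -0.59 to 0.60, limma adjusted p = 0.998), and quantile normalization gave -0.70 ± 0.66 for Orm2 (SE). Orm3 read -0.35, -0.36 and 0.07 in HMGB2-KO livers and -0.38, 0.37 and -0.26 in WT livers, where the high WT value came from replicate 2. It changed by -0.12 ± 0.23 (SE, limma adjusted p = 0.934), which is 0.00 relative to the median gene. Without WT replicate 2 the Orm3 change was 0.11. Orm1, Orm3 and Orm2 lie side by side on chromosome 4, and as close paralogs their probes may share signal too.

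Lcn2 encodes neutrophil gelatinase-associated lipocalin, a protein that withholds iron from bacteria by binding their siderophores and that both hepatocytes and neutrophils make. It read -5.13, -4.97 and -2.89 in HMGB2-KO livers and -5.32, -4.18 and -3.33 in WT livers. On array-centred values the order of the livers was that of Orm2, with replicate 3 highest in each genotype and WT replicate 1 lowest. The change was -0.06 ± 0.68 (SE, 95% interval -1.64 to 1.53, limma adjusted p = 0.992), and it was -0.78 when HMGB2-KO replicate 3 was left out and 0.42 when WT replicate 3 was. Quantile normalization gave a larger change, of -1.58 ± 0.63 (SE, limma unadjusted p = 0.0363, adjusted p = 0.985). Of 12 neutrophil markers, on array-centred values, 0 had both numbered-3 arrays above the other 4 and 3 had HMGB2-KO replicate 3 highest, counts near the 10% and 17.1% of all probe sets. Their part in the Lcn2 readings was not tested. The array-centred median of the neutrophil list lay between 0.02 and 0.06 in HMGB2-KO arrays and between -0.03 and 0.17 in WT arrays. Mmp8, a neutrophil collagenase, was lower in each HMGB2-KO array, at -0.25 ± 0.12 against 0.19 ± 0.10 in WT (SD, n = 3 each, change -0.44 ± 0.14 SE, limma unadjusted p = 0.0152, adjusted p = 0.852). That was 1 of the 12 markers at an unadjusted p of 0.05, where limma called 4.92% of all probe sets.

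The pentraxins are ring-shaped pattern recognition proteins. Apcs, which encodes serum amyloid P, read -1.46, -2.46 and -0.996 in HMGB2-KO livers and -1.29, -1.17 and -1.32 in WT livers. A single liver, HMGB2-KO replicate 2, stood below the rest, and the WT livers lay close together. The means were -1.64 ± 0.75 in HMGB2-KO and -1.26 ± 0.08 in WT (SD, n = 3 each), a change of -0.38 ± 0.34 (SE, 95% interval -1.16 to 0.41, limma adjusted p = 0.861), which was 0.03 without HMGB2-KO replicate 2. Crp read 0.30, 0.10 and 0.35 in HMGB2-KO livers and 0.27, 0.37 and 0.10 in WT livers. It changed by 0.01 ± 0.15 (SE, 95% interval -0.33 to 0.35, limma adjusted p = 0.995), the narrowest interval of the 10. Its SD over the 6 arrays was smaller than that of 86.8% of probe sets, and the RefSeq table of GRCm38.p6 places it beside Apcs on chromosome 1 with 0 other protein-coding genes between their starts.

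**Figure D2:**
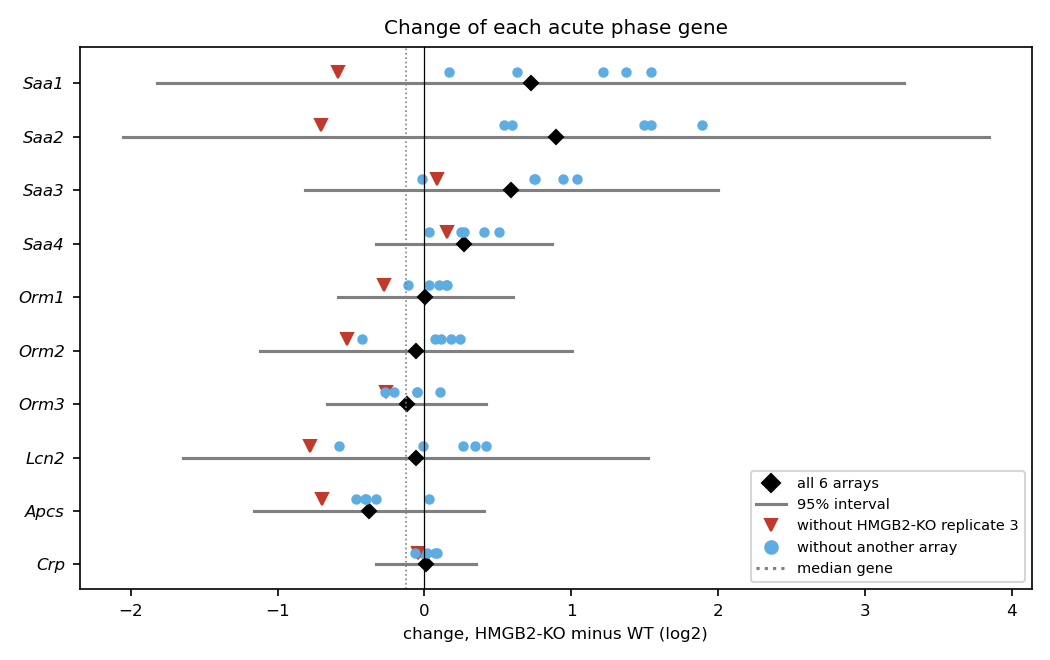
Change of each acute phase gene in log2 units, HMGB2-KO minus WT, from all 6 arrays (diamond, with its 95% interval) and without single arrays (points above each line, with a triangle for the fit without HMGB2-KO replicate 3). All 10 intervals include 0, and the triangles of Saa1 and Saa2 lie on the other side of 0 from their diamonds.

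The highest readings of most members lay in the arrays numbered 3. On array-centred values HMGB2-KO replicate 3 was the highest of the 6 arrays for 10 of 10 members, where 17.1% of all probe sets had it highest, and on deposited values for 8 of 10, against 9.01%. Both arrays numbered 3 lay above the other 4 for 7 of 10 members on array-centred values, against 10% of all probe sets. The members outside these 7 were Saa4, Orm3 and Crp. The array-centred median over the 10 members was -1.72, -1.90 and -0.44 in HMGB2-KO replicates 1, 2 and 3 and -1.47, -1.63 and -1.14 in WT replicates 1, 2 and 3. Among the arrays numbered 1 and 2 alone, a comparison chosen after seeing the data, the genotypes differed by 0.24 ± 0.32 for Saa1, 0.13 ± 0.29 for Saa2 and -0.13 ± 0.32 for Lcn2 (SE, 2 arrays per genotype, array-centred). With a term for the arrays numbered 3, the SE of the Saa2 change was 0.56 instead of 1.27, and limma adjusted p was 0.809. The labels do not say what the numbers stand for.

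Most of the members stood far below their own zero. Saa2 had the lowest mean deposited value of all 22203 probe sets, at -4.57, Lcn2 ranked 2 from the bottom at -4.30 and Saa1 ranked 4 at -3.46. A mean below -2 was found for 19 probe sets in all. Orm2 stood at -1.87, Saa3 at -1.64, Apcs at -1.45 and Orm1 at -1.06, while Orm3 stood at -0.15, Crp at 0.25 and Saa4 at 0.55. HMGB2-KO replicate 3 came nearest to that zero for Saa1 and Saa2, and it was still below it.

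**Figure D3:**
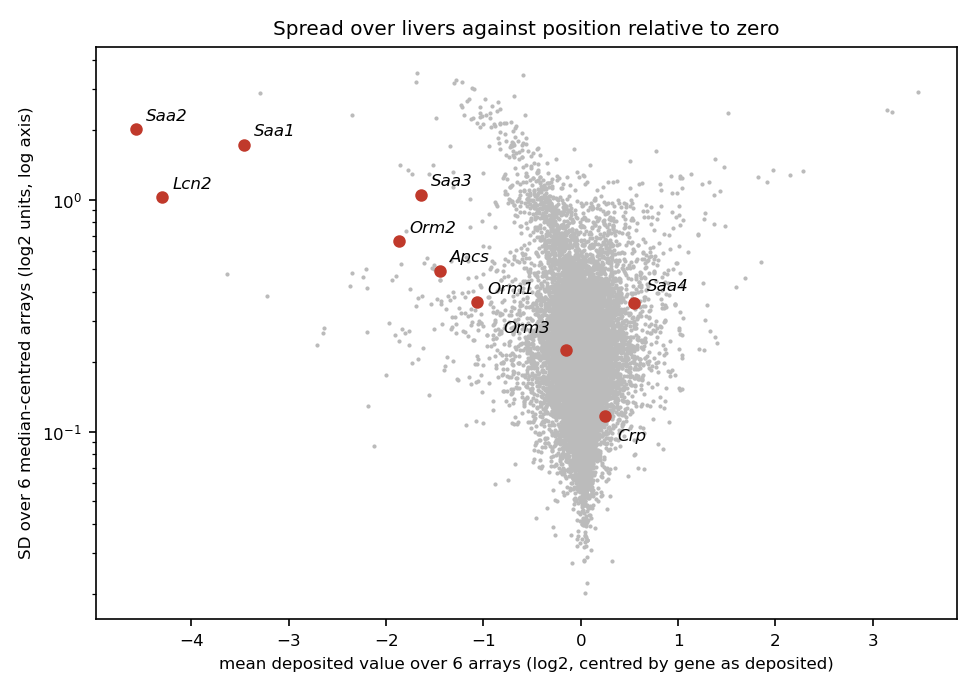
Each grey point is a probe set, with its mean deposited log2 value over the 6 arrays on the horizontal axis and its SD over the array-centred values on a logarithmic vertical axis, and the 10 acute phase genes are in red. Saa2, Lcn2 and Saa1 lie at the far left with SDs above 1, while Crp and Orm3 lie inside the main cloud.

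The upstream sequences of the 6 members with the largest SD over the livers are shown, because acute phase promoters are the textbook targets of these cytokines. Sequences come from RefSeq on GRCm38.p6, where 9 of the 10 members matched by symbol. Each holds the 250 bases before the start site used, 5′ to 3′ on the gene's strand. That window lay wholly within the RefSeq gene span for Saa3, and partly within it for Saa1 and Orm3. For these genes the start used is not the outer end of the gene, and upstream means before the start used. Capitals mark matches on either strand to TTNNGNAA (C/EBP), TTCNNNGAA (STAT) or the NF-kB letters (3 G, any 5 bases and 2 C), and matches that touch or overlap run into 1 block.
Saa1 (chr7:46742981-46743230, minus strand): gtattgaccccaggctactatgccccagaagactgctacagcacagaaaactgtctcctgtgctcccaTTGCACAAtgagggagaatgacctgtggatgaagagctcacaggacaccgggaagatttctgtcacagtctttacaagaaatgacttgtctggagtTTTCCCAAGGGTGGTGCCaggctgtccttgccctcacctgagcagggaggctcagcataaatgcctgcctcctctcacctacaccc
Saa2 (chr7:46751583-46751832, plus strand): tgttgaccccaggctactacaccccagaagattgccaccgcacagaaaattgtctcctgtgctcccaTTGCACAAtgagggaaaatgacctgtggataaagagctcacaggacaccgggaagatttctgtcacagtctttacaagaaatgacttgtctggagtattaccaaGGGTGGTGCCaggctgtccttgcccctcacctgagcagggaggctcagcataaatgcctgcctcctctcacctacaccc
Saa3 (chr7:46715677-46715926, minus strand): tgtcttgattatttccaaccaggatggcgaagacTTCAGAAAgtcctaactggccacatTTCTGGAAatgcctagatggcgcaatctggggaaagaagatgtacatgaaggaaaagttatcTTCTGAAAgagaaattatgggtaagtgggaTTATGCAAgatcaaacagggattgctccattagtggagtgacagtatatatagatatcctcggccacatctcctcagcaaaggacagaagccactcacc
Orm2 (chr4:63362199-63362448, plus strand): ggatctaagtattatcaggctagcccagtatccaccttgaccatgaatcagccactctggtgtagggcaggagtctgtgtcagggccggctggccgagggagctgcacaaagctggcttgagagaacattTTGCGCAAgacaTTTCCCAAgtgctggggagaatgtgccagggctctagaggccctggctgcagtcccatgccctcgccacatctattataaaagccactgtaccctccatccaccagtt
Lcn2 (chr2:32387740-32387989, minus strand): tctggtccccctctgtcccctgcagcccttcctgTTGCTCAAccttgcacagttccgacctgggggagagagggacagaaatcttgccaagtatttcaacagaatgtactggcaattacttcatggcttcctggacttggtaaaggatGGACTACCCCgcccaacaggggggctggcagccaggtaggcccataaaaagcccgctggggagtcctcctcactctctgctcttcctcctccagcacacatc
Apcs (chr1:172895055-172895304, minus strand): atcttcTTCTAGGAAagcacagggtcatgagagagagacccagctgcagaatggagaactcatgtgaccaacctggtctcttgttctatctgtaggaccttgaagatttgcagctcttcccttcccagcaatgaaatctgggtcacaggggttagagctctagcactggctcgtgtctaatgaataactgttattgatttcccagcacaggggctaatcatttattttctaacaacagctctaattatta
The C/EBP letters were found upstream of 8 of the 9 members, where 36.8% of 32851 promoter windows of that length held them. The NF-kB letters were found upstream of 5 of the 9, against 45.8% of windows, and the STAT letters upstream of 1, Apcs, against 7.02%. The upstream sequences of Saa1 and Saa2 were 94.8% identical over their alignment and share a C/EBP match, 182 bases before the start in Saa1 and 183 in Saa2. Those of Orm2 and Orm3 were 85.9% identical, with a C/EBP match 120 bases before the start in Orm2 and 121 in Orm3. The 8 of 9 are therefore not independent counts. In Saa1 a further C/EBP match 86 bases before the start touches the NF-kB match at 78, and Saa2 holds the NF-kB match at 79 without it. Saa3 held 4 C/EBP matches and Orm2 held 2, the nearer of which starts 108 bases before the start. Crp, which barely varied over the livers, also held a C/EBP match, 78 bases before its start. It held 3 NF-kB matches, at 57, 16 and 15 bases, and those at 16 and 15 overlap. A match shows letters and not binding.

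The other acute phase genes of hepatocytes did not differ between the genotypes at either threshold. Of 19 other positive acute phase genes measured, 0 passed limma's adjusted threshold and 0 an unadjusted p of 0.05, higher or lower. Their median lay 0.13 above the median gene, as it did for the members. The smallest p belonged to Steap4, a metalloreductase (change 0.49 ± 0.31 SE), complement C3 (-0.28 ± 0.18) and the fibrinogen chain Fgb (-0.10 ± 0.14), each with a limma adjusted p of at least 0.852. After array centring, HMGB2-KO replicate 3 was the highest array for 12 of the 19, against 17.1% of all probe sets. Both numbered-3 arrays then stood above the other 4 for 8 of the 19, against 10%. Of these 8, Lrg1 and Hp were singled out after their values were seen. Lrg1, a leucine-rich glycoprotein gene, read -1.18, -1.10 and -0.21 in HMGB2-KO livers and -1.48, -1.10 and -0.38 in WT livers, with replicate 3 highest in each genotype. Hp, the haemoglobin scavenger haptoglobin, read -0.86, -0.77 and -0.22 in HMGB2-KO livers and -0.94, -0.89 and -0.61 in WT livers (array-centred). Lpin1, a lipid phosphatase gene on the same list and chosen in the same way, stood on the other side, at 1.33 in HMGB2-KO replicate 3 and -0.68 in WT replicate 3 against 3.74 to 5.39 in the other 4 arrays (array-centred). Of 11 negative acute phase genes, those that the liver turns down in inflammation, 0 passed either threshold. After array centring, 2 of the 11 had both numbered-3 arrays above the rest, against 10% of all probe sets.

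The cytokines, receptors and signalling genes of the pathway held no call either. Among 12 cytokine genes 0 passed limma's adjusted threshold or an unadjusted p of 0.05, and the list's median relative to all probe sets was -0.07. Il6, the main inducer, changed by -0.41 ± 0.24 (SE, limma adjusted p = 0.852), or by -0.16 without WT replicate 2, and Il18 and Tnf changed by -0.29 ± 0.17 and -0.22 ± 0.18. Among 13 receptor genes the count was 0 again, with a median 0.17 above the median gene. The tumour necrosis factor receptor gene Tnfrsf1b stood at 0.56 ± 0.29 (SE, limma adjusted p = 0.852), Lifr, the leukaemia inhibitory factor receptor, at -0.30 ± 0.18 and Osmr, the oncostatin M receptor, at 0.29 ± 0.24. Il6ra, the interleukin 6 receptor, was likewise chosen after its values were seen. In it both numbered-3 arrays, at 0.14 in HMGB2-KO and -0.43 in WT, lay below the other 4, at 1.20 to 1.95 (array-centred). The split of the numbered-3 arrays from the other 4 is the opposite of that in Saa1 and Saa2. HMGB2-KO replicate 3 read above WT replicate 3 in each of these genes.

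Of 20 signalling and transcription factor genes 0 passed either threshold. The adaptor Myd88 stood at -0.30 ± 0.14, Bcl3, an NF-kB cofactor, at -0.37 ± 0.26 and the NF-kB subunit Rela at -0.19 ± 0.17 (SE, limma adjusted p at least 0.852). Stat3 and Cebpb were also chosen after their values were seen. The 6 array-centred values of Stat3 ran from -0.60 to -0.39 in HMGB2-KO and from -0.69 to -0.58 in WT. Their means were -0.48 in HMGB2-KO and -0.63 in WT, while the change on deposited values was 0.02 ± 0.14 (SE). Cebpb read lowest in the numbered-3 arrays, at -0.68 in HMGB2-KO and -0.996 in WT (array-centred). Of 12 feedback inhibitors 0 passed either threshold, with Tnip1, an NF-kB inhibitor, at 0.32 ± 0.16, Ptpn11 at -0.32 ± 0.21 and Ptpn1 at 0.21 ± 0.14 (SE). Of 9 measured receptors and carriers of the acute phase proteins 0 passed, with Ager, a receptor that binds serum amyloid A among others, at -0.29 ± 0.13, the lipocalin receptor gene Slc22a17 at -0.30 ± 0.18 and the scavenger receptor Cd36 at 0.25 ± 0.15 (SE).

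**Figure D4:**
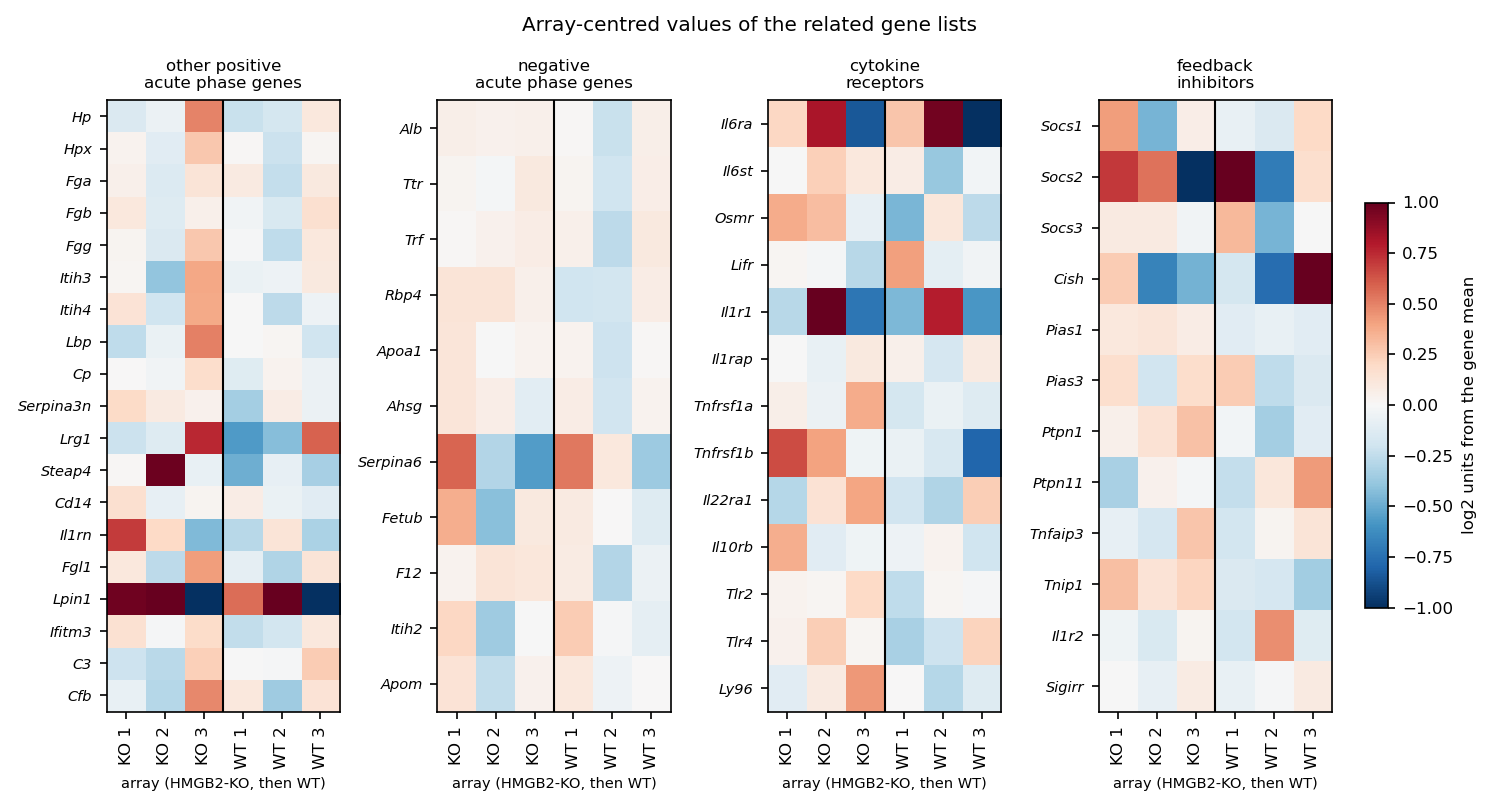
Array-centred values of 4 related gene lists, each gene shown as its distance from its own mean over the 6 arrays in log2 units (red higher, blue lower, colours end at -1 and 1), with the HMGB2-KO arrays left of the black line and the WT arrays right of it. Lrg1 is red in both arrays numbered 3, where Lpin1 and Il6ra are blue, and 0 of the genes shown passed limma's adjusted threshold.

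Since whole liver was used, fewer cells of a type and less RNA per cell cannot be told apart, and gene-wise centring prevents a check of the labelled tissue by marker level. The hepatocyte marker list had an array-centred median of 0.05 to 0.07 in HMGB2-KO arrays and -0.13 to 0.04 in WT arrays. In both that list and the Kupffer cell and macrophage list 9 of 10 genes lay above the median gene. The Kupffer cell and macrophage list lay at 0.36 to 0.55 in HMGB2-KO and 0.34 to 0.49 in WT. It was highest in the arrays numbered 3 of each genotype, and its part in the readings of Saa3 was not tested. Of its 10 genes 0 passed either threshold, with Folr2 at -0.25 ± 0.20 and Timd4 at 0.12 ± 0.16 (SE). HMGB2-KO replicate 3 was the highest array for 6 of these 10 and for 6 of 8 sinusoidal genes, against 17.1% of all probe sets (array-centred). It was highest for 2 of 10 hepatocyte, 2 of 9 lymphocyte, 1 of 6 cholangiocyte and 1 of 5 adipocyte genes. For the stellate and fibroblast list and the monocyte and dendritic list the count was 0 of 8 each. At an unadjusted p of 0.05 the other lists held Pecam1 (0.43 ± 0.17) among 8 sinusoidal genes, Spp1 (0.55 ± 0.20) among 6 cholangiocyte genes and Lum (-0.43 ± 0.18) among 8 stellate and fibroblast genes (SE). Over all probe sets limma called 0.0721% higher and 4.85% lower at that threshold, so single calls in such short lists are not read as results about cell types. The monocyte and dendritic, lymphocyte and adipocyte lists held 0, and no marker passed limma's adjusted threshold.

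Some other transcripts tracked the serum amyloid genes over the 6 livers. Likeness was taken as the root mean square difference between array-centred profiles, each set to its own mean, for the 3 members with the largest SD. Predicted or unnamed genes, sensory receptor genes, microRNA genes and probe sets with several symbols were left out of the ranking. After Saa1, the ranked probe sets nearest to Saa2 were Tsc22d1, a leucine zipper regulator gene, at 0.79 log2 units, and Cdkn1a, the cell cycle inhibitor p21, at 0.92. Saa2 itself deviated by 1.84 from its mean. The same 2 genes were next nearest to Saa1, at 0.58 and 0.73. Tsc22d1 read 0.55, 0.16 and 3.18 in HMGB2-KO livers and 0.23, 0.12 and 1.78 in WT livers (array-centred). Cdkn1a read -2.11, -3.15 and 0.24 in HMGB2-KO livers and -2.47, -2.75 and -0.52 in WT livers, again with replicate 3 high in each genotype. Nearest to Saa3 were Elovl3, a fatty acid elongase gene (0.44), Bmyc (0.49) and Zfp579 (0.49), and WT replicate 2 read lowest of the 6 for all 3. With 6 points and the probe sets that these exclusions left of 21371 to choose from, near profiles arise without any link between the genes.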

How the data were processed

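Total RNA of 6 livers was labelled with biotin and hybridised to 1-colour Clariom S mouse arrays, per the labels' protocols. The authors deposited a table of 22206 rows of log2 values centred by gene, and the series matrix holds the same values; the scale was read from the values, and the labels name no software, background correction or genome build. The 22203 probe sets with a symbol (21371 with 1 symbol, 832 with several) were tested for HMGB2-KO minus WT in R 4.3.3 with limma 3.58.1 (lmFit, eBayes). The deposited columns entered unscaled, genotype was the sole term, and p-values were adjusted over all of them by Benjamini-Hochberg. 3 arrays per genotype limit the precision. The procedure was tested on simulated data. A filter on dim probe sets could not be applied, since centring removes brightness. The members, gene lists and tests were chosen with earlier results of these data known. Genes were named from the members, Hmgb2 and the 3 with the smallest p of each pathway list. From each marker list they came from the 2 with the smallest p. For likeness they were the 3 nearest of the probe sets ranked, with predicted and sensory receptor genes among those left out. Not every gene under this rule is named, and the negative acute phase list and some marker lists have none. Names outside this rule are given as chosen after their values were seen. Alternatives were array centring, quantile normalization, robust eBayes, array weights, a replicate block, a term for the arrays numbered 3, the series matrix table, and each array left out.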

Additional observations from a re-analysis of the deposited data

How the results depend on the processing

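No member passed limma's adjusted threshold under any of the 16 alternatives run, and the count over all probe sets stayed at 0 except with array weights, which gave 6. Unadjusted calls among members appeared with quantile normalization (1, Lcn2, at -1.58), array weights (1, Saa4) and on array-centred values without WT replicate 2 (1, Saa4). The median change of the members relative to the median gene was 0.13, turned to -0.21 with quantile normalization and -0.27 on array-centred values without HMGB2-KO replicate 3, and ran from -0.27 to 0.42 when single arrays were left out. Quantile normalization moved Orm2 to -0.70 and turned Saa1 (-0.43), Saa2 (-0.67) and Orm3 (0.054). Array centring turned Orm2 (0.061) and Lcn2 (0.060). Array weights turned Orm2 (0.47), Orm3 (0.10), Lcn2 (0.66) and Crp (-0.012). Array centring without WT replicate 2 turned Orm2 (0.10), Orm3 (0.14) and Lcn2 (0.017). Array centring without HMGB2-KO replicate 3 turned Saa1 (-0.47), Saa2 (-0.59) and Orm1 (-0.16), and the arrays numbered 1 and 2 alone turned Orm1 (-0.012); these last 2 settings were chosen after seeing the data. Leaving out single arrays gave ranges of -0.59 to 1.54 for Saa1, -0.70 to 1.89 for Saa2, -0.019 to 1.04 for Saa3, -0.28 to 0.15 for Orm1, -0.53 to 0.24 for Orm2, -0.27 to 0.11 for Orm3, -0.78 to 0.42 for Lcn2, -0.70 to 0.031 for Apcs and -0.065 to 0.082 for Crp. The cause of these turns was not tested. Over all probe sets same-numbered arrays deviated together with correlations of 0.02, 0.13 and 0.27 for numbers 1, 2 and 3. Differently numbered arrays were not correlated for comparison, so these values cannot decide whether the numbers pair the samples. The main fit did not pair them, and the replicate block left 0 members and 0 probe sets called. For some members the block changed the SE, to 0.41 from 1.09 for Saa1, 0.57 from 1.27 for Saa2 and 0.26 from 0.68 for Lcn2. That of Crp rose to 0.17 from 0.15. A filter on dim probe sets was not run.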
